A study of Rattus norvegicus with 12 samples.

Results

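Genes that mark adipocytes, the fat-storing cells of adipose tissue and of the fat layer under the skin, were followed in cultures of rat skin-derived precursors (SKPs). SKPs are dermal precursor cells that grow as floating spheres. The 9 genes were chosen by symbol: Pparg, Cebpa, Fabp4, Lpl, Adipoq, Plin1, Cd36, Cfd and Lipe. For 8 of the 9 the array had a feature that carries that symbol alone, and all 8 passed the filter on low signals, a mean log2 value of at least 5.83, as did 13636 of the 18166 genes with such a feature. Each of the 8 had a single feature. Cd36, which encodes a fatty acid transporter, has a feature that the platform annotation lists under a further symbol, RGD1562323, now a synonym of Cd36 in RefSeq, and under the rule of a single symbol it was not analysed here.

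SKPs of newborn Sprague-Dawley rats had formed spheres in medium with FGF2, EGF and B27, and the secondary spheres were dissociated before a 24 h treatment. The 4 groups of 3 arrays each, 12 arrays in all, received 100 nM trimebutine maleate together with 100 nM trametinib, 100 nM alprostadil, 100 nM trimebutine maleate alone, or vehicle. Trametinib is an inhibitor of MEK, which phosphorylates ERK, alprostadil is prostaglandin E1, and trimebutine is a gut motility drug. Trametinib was given only together with trimebutine, so that its addition is read against trimebutine alone. The study describes 3 independent isolates of cells, and the titles number the arrays of each group 1 to 3. Arrays with the same number are taken here as a block. The labels do not say how many pups an isolate held.

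The deposited values are log2 expression values, with array medians from 6.409 to 6.505. The number of arrays limits the precision. As a check on trametinib, Dusp6, a phosphatase gene induced by ERK, averaged 8.38 ± 0.30 with trimebutine and trametinib and 11.60 ± 0.14 with trimebutine alone (SD, n = 3 each). The dermal markers fixed for SKPs, of which 9 of 10 had a feature, had a mean log2 value from 10.80 to 11.03 on every array. Against trimebutine alone, 3 of 9 tested rose with trametinib, Col1a1 (0.56), Col1a2 (0.59) and Prrx1 (0.50), and 2 fell, Pdgfra (-0.79) and Twist1 (-0.29). The mean of 5 keratinocyte markers stayed from 5.51 to 5.73. Epcam, from 3.29 to 3.68, lowers that mean, and the other 4 passed the low-signal filter.

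Adipocytes arise from mesenchymal precursors in a programme led by the nuclear receptor PPAR gamma (Pparg) and the transcription factor C/EBP alpha (Cebpa), which sustain each other's expression. These switch on genes of fatty acid uptake (Lpl, Cd36), of fatty acid binding in the cytoplasm (Fabp4), of the lipid droplet coat (Plin1), of lipolysis (Lipe) and of secreted adipokines (Adipoq, Cfd). Phosphorylation of PPAR gamma by ERK is known to lower its activity. Several of the genes are not exclusive to fat: macrophages also express Lpl, Fabp4, Pparg and Cd36.

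Promoter sequences were matched by symbol in RefSeq (build GRCr8, 250 bases before to 50 after an annotated start), which held 7 promoters of 6 of the 9 genes. They are shown for both regulators and for the droplet coat gene, which rose together when trametinib was added. Capitals mark the matches to the motifs searched on both strands: the half-site AGGTCA of nuclear receptors, the direct repeat of that half-site with 1 base between, which PPAR gamma binds with RXR, the C/EBP core TTGCNNAA, and the TATA box TATAAA. The direct repeat contains the half-site. Cebpa lies at chr1:96896334-96896633 (plus strand), the downstream of both Pparg starts at chr4:150154522-150154821 (plus strand), and Plin1 at chr1:143086099-143086398 (minus strand, printed as transcribed).
Cebpa: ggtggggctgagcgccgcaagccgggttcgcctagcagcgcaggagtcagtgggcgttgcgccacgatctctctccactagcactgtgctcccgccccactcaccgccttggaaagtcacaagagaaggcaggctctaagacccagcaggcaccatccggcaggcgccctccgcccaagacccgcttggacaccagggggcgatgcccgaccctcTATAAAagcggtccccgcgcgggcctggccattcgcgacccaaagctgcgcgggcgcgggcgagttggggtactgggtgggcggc
Pparg: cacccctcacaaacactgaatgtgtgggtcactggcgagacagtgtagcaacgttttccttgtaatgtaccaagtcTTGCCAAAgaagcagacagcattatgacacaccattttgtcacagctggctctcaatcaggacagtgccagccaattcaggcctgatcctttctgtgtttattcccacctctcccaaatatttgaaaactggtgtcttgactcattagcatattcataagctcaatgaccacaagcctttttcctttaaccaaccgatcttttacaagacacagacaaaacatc
Plin1: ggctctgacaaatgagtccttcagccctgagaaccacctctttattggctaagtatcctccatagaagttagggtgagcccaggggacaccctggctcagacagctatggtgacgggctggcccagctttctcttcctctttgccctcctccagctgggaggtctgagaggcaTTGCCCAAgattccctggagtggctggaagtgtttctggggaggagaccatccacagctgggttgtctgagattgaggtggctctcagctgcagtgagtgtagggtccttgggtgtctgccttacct
The TATA box of Cebpa lies from -35 to -30 relative to the start. The C/EBP core was found at -174 to -167 in Pparg and at -77 to -70 in Plin1. The C/EBP core was present in 2 of the 7 promoters, beside 10.6% of all 33469 promoters in the table, and TATAAA in 3 of 7, beside 14.2%. Only the TATAAA match of Cebpa was on the gene strand. Those of Cd36 (-175 to -170) and of the upstream Pparg start (29 to 34) were on the other strand, away from the usual place of a TATA box. The half-site is in 16.2% of all promoters and the direct repeat in 0.0538%, and neither had a match in these 7 windows, which says only that the letters are not there.

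Adding trametinib to trimebutine asked what MEK inhibition changes at the same dose of trimebutine. Of the 8 adipocyte genes, 7 rose and none fell against trimebutine alone, with Lpl as the largest rise, 3.81-fold, followed by Plin1 at 1.54-fold, Fabp4 at 1.39-fold and Pparg at 1.33-fold. Cfd did not pass. Of all genes tested in this comparison, 42% changed, 21.2% higher and 20.8% lower. The 8 genes had a median difference of 0.38 on the log2 scale, beside 0.0305 over all genes. In such bulk cultures, a change in the number of cells of a type and a change in RNA per cell cannot be told apart.

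Both regulators were higher with trametinib. Pparg read 7.81, 8.0 and 8.03 (replicates 1, 2 and 3) with trimebutine and trametinib, 7.15, 7.39 and 7.70 with alprostadil, 7.51, 7.33 and 7.76 with trimebutine and 7.62, 7.39 and 7.80 with vehicle. All 3 combination arrays lay above all arrays of the other groups, though narrowly, the lowest at 7.81 beside 7.80 for vehicle replicate 3. Its log2 difference from trimebutine was 0.41 (SE 0.099, n = 3, limma adjusted p = 0.00646), and it was positive in 3 of 3 replicates. Cebpa read 8.02, 8.17 and 8.39 with trimebutine and trametinib, 7.46, 7.85 and 7.98 with alprostadil, 7.81, 7.83 and 8.13 with trimebutine and 7.85, 7.91 and 8.17 with vehicle. Combination and trimebutine arrays overlapped, while within each replicate the combination was higher, by 0.21, 0.34 and 0.26. The Cebpa difference was 0.27 (SE 0.068, limma adjusted p = 0.00912). It did not pass without trimebutine replicate 2 (adjusted p = 0.0554), nor, with 2 replicate numbers, without number 2 (adjusted p = 0.0858) or 3 (adjusted p = 0.0605), and Pparg did not pass without number 2 (adjusted p = 0.0886).

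Lpl encodes lipoprotein lipase, which releases fatty acids from lipoproteins outside the cell. It read 12.69, 12.34 and 12.25 with trimebutine and trametinib, 10.03, 10.43 and 10.80 with alprostadil, 10, 10.37 and 11.13 with trimebutine and 10.18, 10.27 and 11.12 with vehicle. The combination arrays stood more than 1 log2 unit above every other array. The difference from trimebutine was 1.93 (95% interval 1.42 to 2.44, limma adjusted p = 5.76e-05), the 37th largest rise of the 13636 genes, and by replicate it was 2.69, 1.97 and 1.13. Replicate 1, with the lowest Lpl on trimebutine, had the highest on the combination. Lpl passed in all 9 runs that left out an array of these groups or a replicate number (differences from 1.55 to 2.33), and also without the block.

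Fabp4 encodes the cytoplasmic fatty acid binding protein of adipocytes, also known as aP2. Its values were 9.33, 10.34 and 10.85 with trimebutine and trametinib, 8.46, 9.98 and 10.45 with alprostadil, 8.61, 9.73 and 10.75 with trimebutine and 8.77, 9.72 and 10.76 with vehicle. The groups overlapped broadly, with replicate 1 low in every group. Within replicates the combination was above trimebutine by 0.72, 0.61 and 0.09. The difference was 0.47 (SE 0.13, limma adjusted p = 0.0140). It did not pass without combination replicate 1 (adjusted p = 0.0728) or 2 (adjusted p = 0.0529), trimebutine replicate 1 (adjusted p = 0.0591) or 2 (adjusted p = 0.0688), or without replicate number 1 (adjusted p = 0.126) or 2 (adjusted p = 0.0769).

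The droplet and lipolysis genes were higher too. Plin1, whose product perilipin 1 coats the lipid droplet and controls access of lipases, read 8.0, 9.05 and 9.45 with trimebutine and trametinib, 7.64, 8.11 and 8.54 with alprostadil, 7.59, 8.20 and 8.85 with trimebutine and 7.23, 8.23 and 8.75 with vehicle. Within replicates the combination exceeded trimebutine by 0.41, 0.85 and 0.61, a mean of 0.62 (SE 0.11, limma adjusted p = 0.00129), and Plin1 passed in all 9 runs without an array or a replicate number. Lipe encodes hormone-sensitive lipase. Lipe read 7.16, 7.30 and 7.36 with trimebutine and trametinib, 7.13, 7.22 and 7.24 with alprostadil, 6.93, 7.19 and 7.23 with trimebutine and 7.01, 7.13 and 7.25 with vehicle. Its difference from trimebutine was small, 0.16 (SE 0.054, limma adjusted p = 0.0377), positive in 3 of 3 replicates, and not past the threshold in any of the 9 runs without an array or a replicate number (adjusted p from 0.0524 to 0.176).

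Among the secreted products, Adipoq rose and Cfd did not pass. Adipoq, which encodes the adipokine adiponectin, read 8.65, 10.28 and 10.54 with trimebutine and trametinib, 8.37, 10 and 10.29 with alprostadil, 8.21, 9.80 and 10.42 with trimebutine and 8.44, 9.75 and 10.41 with vehicle. Replicate 1 was low in every group, and the combination was above trimebutine by 0.44, 0.48 and 0.12 within replicates. The mean difference was 0.35 (SE 0.088, limma adjusted p = 0.00863). With 2 replicate numbers it did not pass without number 1 (adjusted p = 0.0807) or 2 (adjusted p = 0.0759). Cfd, which encodes the complement protease adipsin, read 7.41, 8.55 and 8.55 with trimebutine and trametinib, 7.04, 8.41 and 8.61 with alprostadil, 7.60, 8.15 and 8.45 with trimebutine and 7.42, 8.29 and 8.43 with vehicle. The Cfd difference was 0.10, with a 95% interval from -0.19 to 0.39, and lay below 0 in replicate 1 (-0.19) and above it in replicates 2 (0.40) and 3 (0.10).

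Against vehicle the combination gave nearly the same picture. Again 7 of 8 genes were higher, where 22.1% of all genes were (43.2% in either direction), and Cfd did not pass (0.12, 95% interval -0.17 to 0.41). Lpl was higher by 1.90 (SE 0.23, limma adjusted p = 6.26e-05) and Plin1 by 0.76 (SE 0.11, limma adjusted p = 0.000312). The other 5 that rose lay from 0.15 for Lipe (limma adjusted p = 0.0488) to 0.42 for Fabp4 (limma adjusted p = 0.0238), and each of the 5 was higher in 3 of 3 replicates. In both comparisons the combination arrays are the same.

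Neither count rests on separated groups. Against trimebutine, only Pparg and Lpl had all combination arrays above all trimebutine arrays, 2 of 8, where 24% of all genes did. The same 2 genes stood above all vehicle arrays, where 24.9% of all genes did. The count of 7 became 1, Lpl, in a fit without the replicate block, in both comparisons, since differences between replicates then count as spread. In each comparison, none of the 9 runs without an array of its groups or a replicate number kept 7. Lipe and Cfd did not pass in any of them. Against trimebutine the count was 4 without trimebutine replicate 2, 4 without replicate number 1 and 2 without number 2. Against vehicle it was 3 without combination replicate 1, 2 without combination replicate 2, 2 without vehicle replicate 2, 4 without replicate number 1 and 2 without number 2.

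Alprostadil and trimebutine alone were each compared with vehicle, which they share as control. No adipocyte gene passed for alprostadil, where 1.88% of all genes did. The differences ran from -0.21 for Cebpa (95% interval -0.36 to -0.06, limma adjusted p = 0.189) and -0.19 for Pparg (95% interval -0.41 to 0.03) to 0.07 for Lipe (95% interval -0.05 to 0.19). Cebpa was lower with alprostadil than with vehicle in 3 of 3 replicates (-0.39, -0.07 and -0.18). Of the 8 genes, Cebpa alone had an unadjusted limma p under 0.05. For trimebutine the 8 differences ran from -0.07 for Pparg to 0.14 for Plin1 (95% interval -0.11 to 0.40), none with an unadjusted p under 0.05. With limma, 0% of all genes passed for trimebutine, and 252 had an unadjusted p under 0.05. The widest interval was that of Lpl, from -0.54 to 0.48 for trimebutine and from -0.61 to 0.41 for alprostadil, so that smaller changes of Lpl were not detectable here.

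**Figure D1:**
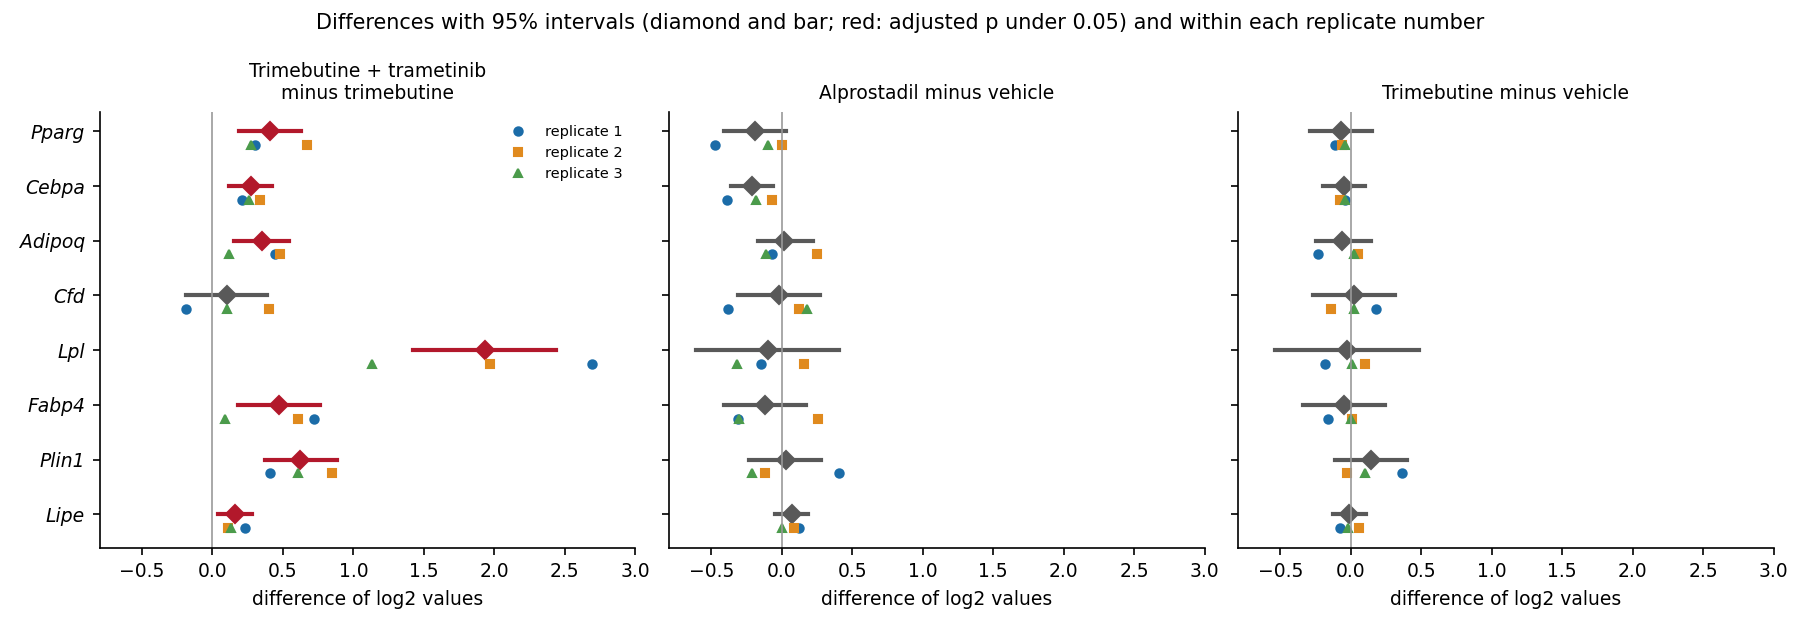
Difference of log2 values (horizontal axis) for each adipocyte gene (vertical axis) in 3 comparisons. Diamonds and bars are the fitted difference and its 95% interval, red where the adjusted p was under 0.05, and the small symbols are the differences within each replicate. The 7 red intervals are all for trimebutine with trametinib minus trimebutine, and every interval of trimebutine minus vehicle crosses 0.

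In the order of the 4 group means, the combination came first for all 8 genes. For Lpl the means were 12.43 ± 0.23 with trimebutine and trametinib, 10.42 ± 0.38 with alprostadil, 10.50 ± 0.58 with trimebutine and 10.52 ± 0.52 with vehicle (SD, n = 3 each). Alprostadil had the lowest mean for Pparg (7.41 ± 0.28), Cebpa (7.76 ± 0.27), Fabp4, Lpl and Cfd, trimebutine for Adipoq and Lipe, and vehicle for Plin1. Among alprostadil, trimebutine and vehicle, none of the 3 pairs differed past the threshold for any of the 8 genes, and 2.51% of all genes did between alprostadil and trimebutine. The combination differed from alprostadil for 6 of the 8 genes, all higher, where 24.5% of all genes were (46.4% in either direction). There Pparg, Cebpa and Lpl had no overlap, as did 26.3% of all genes. Lipe (0.08, 95% interval -0.04 to 0.20) and Cfd (0.15, 95% interval -0.14 to 0.44) did not pass there, and that count was 3 without the replicate block. Over the 4 groups at once, limma's moderated F test called 6 of 8, all but Cfd and Lipe, with 42.7% of all genes called, and 1 of 8 without the block.

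For 6 of the 8 adipocyte genes, all but Pparg and Lpl, more of the spread lay between replicate numbers than between treatments. Adipoq was 3.99-fold higher in replicate 3 than in replicate 1 on average over the 4 groups, Fabp4 3.76-fold, Plin1 2.43-fold and Cfd 2.20-fold. On the log2 scale these differences were 2.00 (SE 0.076) for Adipoq, 1.91 (SE 0.11) for Fabp4, 1.28 (SE 0.10) for Plin1 and 1.14 (SE 0.11) for Cfd, with n = 4 arrays per replicate number. The differences were smaller for Lpl (0.60), Cebpa (0.38), Pparg (0.30) and Lipe (0.21). The 4 arrays of a number are differently treated cultures taken as 1 isolate, so that these errors do not measure the spread of repeated isolates. A moderated F test over the replicate numbers called 6 of 8 genes, all but Pparg (limma adjusted p = 0.0503) and Lpl (limma adjusted p = 0.123), where 14.4% of all genes were called. For Adipoq this F statistic was the largest of the 13636 genes, for Fabp4 the 39th, for Plin1 the 98th and for Cfd the 174th.

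Replicate 1 held the lowest value of its group in 4 of 4 groups for Cebpa, Fabp4, Adipoq, Plin1, Cfd and Lipe, in 3 of 4 for Lpl and in 2 of 4 for Pparg. For 5 of the 8 genes, Fabp4, Adipoq, Plin1, Cfd and Lipe, all 4 arrays of replicate 3 lay above all 4 of replicate 1, as they did for 4.91% of all genes. Replicate number accounted for 96.7% of the sum of squares of Adipoq over the 12 arrays, 91.8% for Cfd, 90.6% for Fabp4, 71.4% for Plin1, 61.8% for Lipe, 48.4% for Cebpa, 28.8% for Pparg and 7.92% for Lpl. Treatment took 84.2% for Lpl and 56.6% for Pparg, and 2.36% for Adipoq. The median gene had 13.9% for replicate number and 49.7% for treatment. Adipoq had the highest replicate share of the 8 genes, Cfd the lowest treatment share, 1.13%, and Lpl the highest treatment share.

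**Figure D2:**
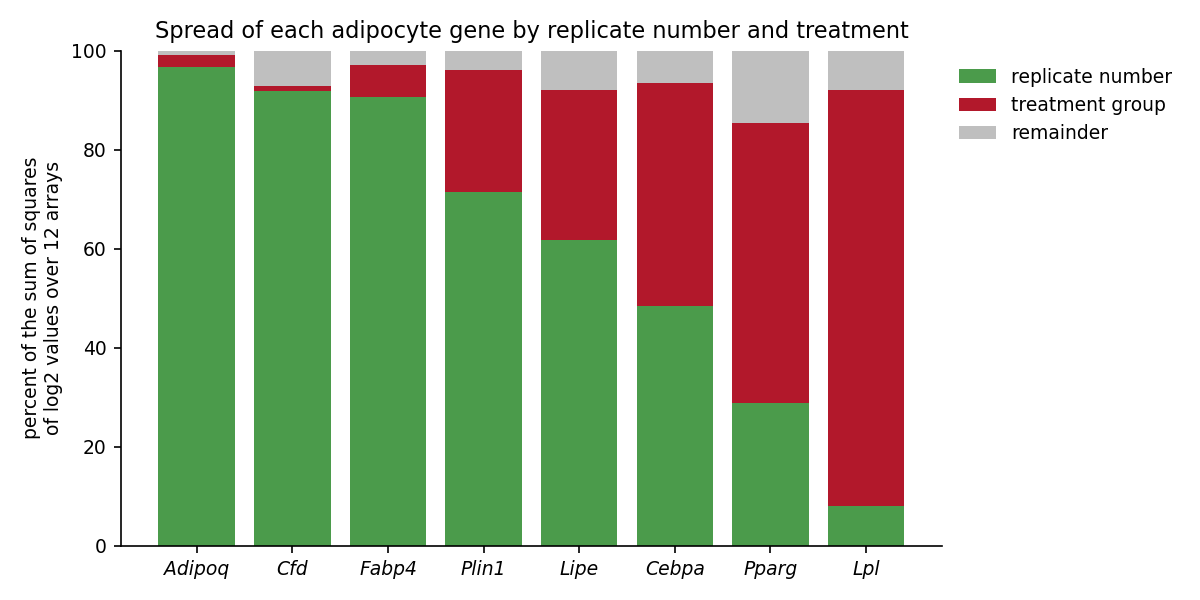
Percent of the sum of squares of log2 values over the 12 arrays (vertical axis) that lies between replicate numbers, between treatment groups and in the remainder, for each adipocyte gene (horizontal axis). The replicate share runs from 96.7% for Adipoq at the left to 7.92% for Lpl at the right.

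Markers of macrophages moved with the replicate number as well. Of 11 tested macrophage markers, 8 differed between replicate numbers, all of them higher in replicate 3 than in replicate 1, where 14.4% of all genes differed. These included Ptprc, the common leukocyte antigen CD45 (4.49-fold), Fcer1g (4.66-fold), Tyrobp (4.08-fold) and the growth factor receptor gene Csf1r (2.99-fold). The mean log2 value of the 12 measured markers ranged from 7.29 to 8.10 with trimebutine and trametinib, from 7.25 to 8.61 with alprostadil, from 7.41 to 8.53 with trimebutine and from 7.52 to 8.52 with vehicle, with replicate 1 lowest and replicate 3 highest in each group. Their part in the differences of the adipocyte genes between replicates was not tested. Endothelial cells also express Fabp4. Of their 10 listed markers, Pecam1 and Kdr had no feature of their own, and Tek and Tie1 did not pass the low-signal filter. None of the 6 tested passed between replicate numbers. The mean of 8 stayed from 5.96 to 6.18 on all arrays, near the low-signal limit of 5.83.

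When trametinib was added, 1 of 11 tested macrophage markers rose, Csf1r (0.31), and 3 fell, Cd68 (-1.03), Cd14 (-0.68) and Ptprc (-0.47), with a list median of -0.15, where 21.2% of all genes rose and 20.8% fell. On the smooth muscle list 1 of 3 tested genes rose, Tagln by 2.37, while Myh11 (0.02) and Des (-0.34) did not pass. On the Schwann list 1 of 3 tested rose, S100b by 0.58, a gene also known from adipocytes. Sox10 (0.07) and Ngfr (-0.16) of that list did not pass. The part of other cell types in the rise of the adipocyte genes was not tested. The mean of the 8 adipocyte genes was 8.63, 9.25 and 9.43 (replicates 1, 2 and 3) with trimebutine and trametinib and 8.03, 8.57 and 9.09 with trimebutine. Lpl weighs most in that rise, with the largest difference of the 8 genes in each replicate (2.69, 1.97 and 1.13). The macrophage mean was 7.29, 7.91 and 8.10 with the combination and 7.41, 7.92 and 8.53 with trimebutine, nearly equal in replicate 2. It was 7.25, 7.93 and 8.61 with alprostadil and 7.52, 7.81 and 8.52 with vehicle. The combination was thus above alprostadil in replicate 1 and above vehicle in replicate 2, and below them in the other replicates.

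**Figure D3:**
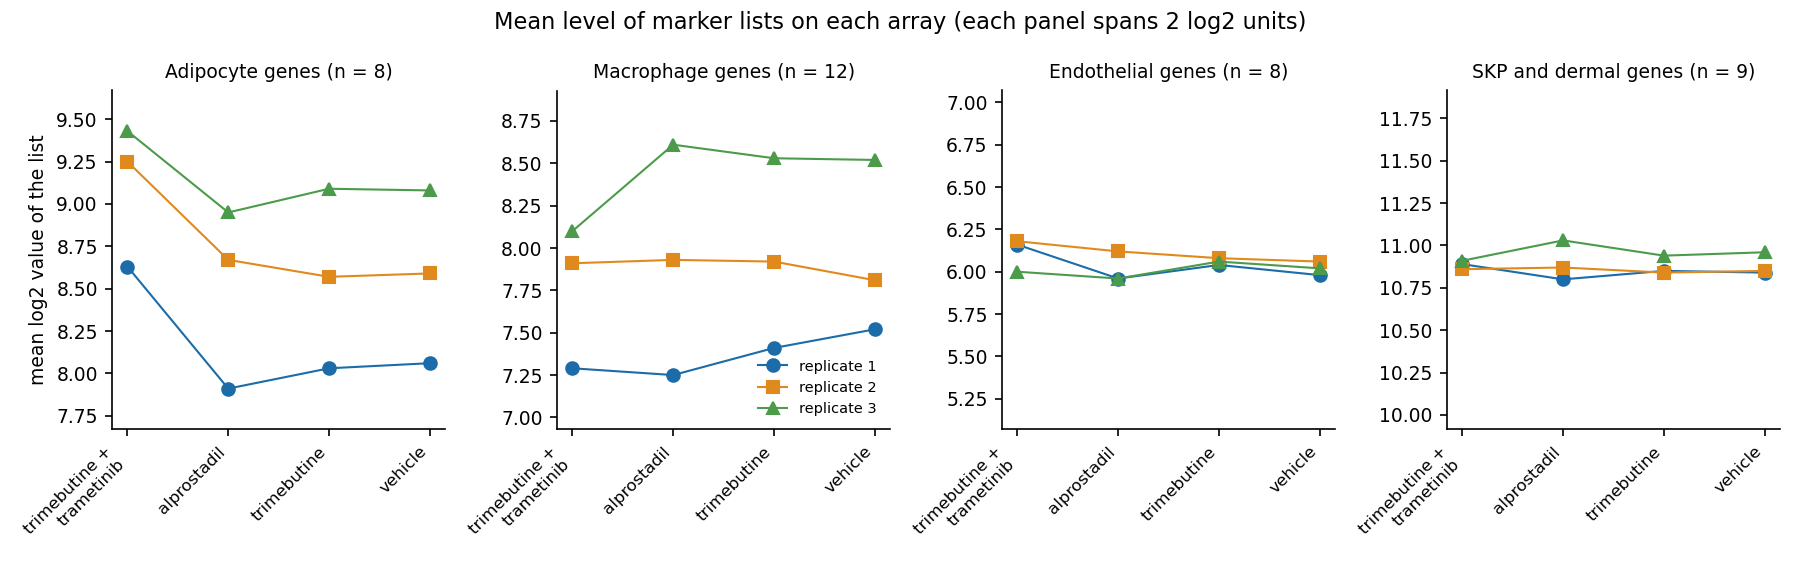
Mean log2 value of 4 marker lists (vertical axis, each panel spanning 2 log2 units) on each array by treatment group (horizontal axis), with lines joining arrays of the same replicate number. Adipocyte and macrophage genes are both ordered by replicate, but with trametinib the adipocyte means lie above those of the other groups for each replicate and the macrophage means do not.

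The 8 genes moved together in different ways along the 2 axes of the design. After group means were removed, so that only differences between replicates remained, Pearson's r between the 21 pairs without Lpl ran from 0.47 to 0.98 with a median of 0.87 over the 12 arrays, and the 7 pairs with Lpl from 0.50 to 0.73 with a median of 0.63. After replicate means were removed, the pairs with Lpl had a median r of 0.85 and the pairs without it 0.68, the lowest at -0.13. These values describe arrays that share isolates and treatments. The search for similar genes covered tested genes and left out the 8 genes, locus-number names, and olfactory and vomeronasal receptors. Over the 12 arrays as deposited, the genes most like the mean of the 8 (each standardised) were S100b (r = 0.990), a calcium-binding protein gene known from glia and adipocytes, Car3 (r = 0.985), a carbonic anhydrase gene abundant in fat and muscle, Trarg1 (r = 0.983), a regulator of glucose transporter traffic in adipocytes, the lipid droplet gene Cidec (r = 0.974) and the tetraspanin gene Cd9 (r = 0.971). Pparg was most like Selenop (r = 0.977), a selenium transport protein gene, Crat (r = 0.962), which encodes carnitine acetyltransferase, and Car11 (r = 0.959).

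Other genes of the adipocyte programme were counted from 9 lists. The lists held 96 tested genes, each counted once. The coactivator gene Ppargc1a passed the low-signal filter only through the groups where it was high: it averaged 6.13 with trimebutine and trametinib, 6.14 with alprostadil, 5.58 with trimebutine and 5.54 with vehicle, the last pair under the limit of 5.83. It was left out of the counts after its values were seen. Of the other 95 genes, 37 rose, 16 fell and 42 did not pass when trametinib was added, where 21.2% of all genes rose and 20.8% fell. Of 13 lipid droplet and lipolysis genes 7 rose and 1 fell. Mgll (0.84), which encodes the monoglyceride lipase, Pnpla2 (0.52), which encodes the main triglyceride lipase, and the droplet genes Cidec (0.61) and Cidea (0.46) rose. Plin2 fell by 0.72 (SE 0.063, limma adjusted p = 5.19e-06), a droplet coat gene found in many cell types, whereas Plin1 of adipocytes rose. Of 16 genes of fatty acid and triglyceride synthesis 8 rose, among them the desaturase gene Scd (0.53) and the acetyl-CoA carboxylase gene Acaca (0.29), and 2 fell, the citrate lyase gene Acly (-0.48) and Lpin1 (-0.27).

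Among 12 genes of fatty acid and glucose uptake and lipase control, 4 rose and 2 fell, where 21.2% of all genes rose and 20.8% fell. The heart and muscle fatty acid binding protein gene Fabp3 read 9.30, 8.95 and 8.83 with trimebutine and trametinib and 6.83, 6.90 and 6.88 with trimebutine, a rise of 2.15 (SE 0.11, limma adjusted p = 9.29e-08). All 3 combination arrays lay above the arrays of every other group. The lipoprotein receptor gene Vldlr rose by 1.46, and the caveolin gene Cav1 fell by 0.77. Of 12 adipokines and hormone receptors 4 rose, including Rarres2 (1.61), which encodes chemerin, the insulin receptor substrate gene Irs1 (1.31) and the insulin receptor gene Insr (0.73). Another 4 fell: the resistin gene Retn (-0.48), the insulin receptor substrate gene Irs2 (-0.46), Nampt (-0.35) and the adiponectin receptor gene Adipor1 (-0.19).

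Regulators were counted against the same shares of all genes, 21.2% higher and 20.8% lower. Of 14 that favour adipogenesis 5 rose, led by the zinc finger genes Klf4 (1.35), Klf9 (1.33) and Zfp423 (0.78), and 2 fell, Klf5 (-0.38) and Cebpb (-0.15). Of 9 that oppose it 4 rose, including Klf2 (1.58) and Ddit3 (0.74), and 2 fell, including Dlk1 (-0.58), the preadipocyte gene whose product Pref-1 holds back differentiation. Among 10 PPAR receptors, partners and cofactors other than Ppargc1a, 2 rose, the coactivator genes Ppargc1b (0.38) and Ncoa2 (0.32), and 2 fell, Ppard (-0.35) and Med1 (-0.20). Of 7 precursor markers Cd34 (1.96) and Icam1 (0.52) rose and Pdgfra fell by 0.79, and of 4 brown and beige genes other than Ppargc1a, Cidea and Tmem26 (0.44) rose.

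With alprostadil, 2 of the 95 genes rose and 1 fell, beside 1.17% and 0.711% of all genes. Angptl4, which encodes a secreted inhibitor of lipoprotein lipase, read 7.95, 7.50 and 7.62 with alprostadil and 7.13, 6.87 and 7.02 with vehicle, higher by 0.68 (SE 0.14, limma adjusted p = 0.0380). Nampt rose by 0.32 (limma adjusted p = 0.0386), while Klf4 fell by 0.53 (limma adjusted p = 0.0130). Klf4 and Nampt had differences of opposite sign with alprostadil against vehicle and with trametinib added to trimebutine, comparisons that share no arrays. Angptl4 did not pass when trametinib was added (-0.11, 95% interval -0.42 to 0.21).

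**Figure D4:**
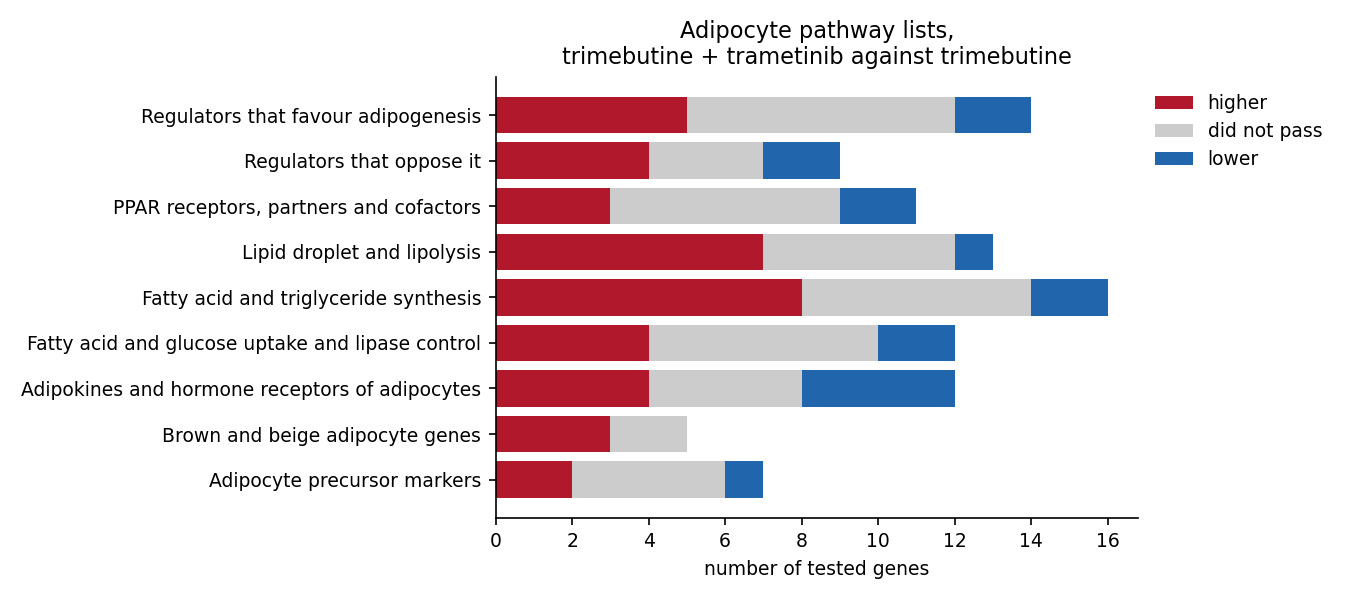
Number of tested genes (horizontal axis) in each of 9 lists of the adipocyte programme (vertical axis) that were higher, lower or did not pass for trimebutine with trametinib against trimebutine. The lipid droplet list (7 higher of 13) and the synthesis list (8 of 16) have the most higher genes, the adipokine list has 4 higher and 4 lower of 12, and the bars of the PPAR and the brown and beige lists include Ppargc1a.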

How the data were processed

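Total RNA of 12 SKP cultures was measured on Affymetrix Rat Gene 2.0 ST arrays, which use 1 colour. The deposited values are log2 expression values, made by the authors with RMA in oligo according to the submitters' processing notes; for both tools the version is not given in the sources used here. Because RMA sets arrays to a common distribution, it hides a shift of all RNA per cell. All values are taken as deposited, and fold values are powers of log2 differences.

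Of 36685 features, 18511 had 1 gene symbol in the platform annotation, and 575 with several and 17599 with none were left out. Symbols were updated through Entrez identifiers to GRCr8 (18394 matched). The brightest feature of a symbol was used. Genes with a mean under 5.83, the 25th percentile, were left out.

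limma 3.58.1 (R 4.3.3) fitted group means and the replicate number as a block over the 12 arrays (6 residual degrees of freedom), two-sided, Benjamini-Hochberg over 13636 genes, threshold 0.05. The block comes from the numbers in the titles: deviations from the group mean correlated at 0.21 to 0.81 in the 18 same-number pairs across groups, and at -0.71 to 0.10 in the 36 other pairs. The steps were tested on simulated data. P-values rest on the spread that remains between these cultures after treatment group and replicate number are taken out.

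The genes, the lists and the rule for names were chosen with earlier results of these data known. Named genes are the 8 genes, up to 3 per list with the smallest p for trametinib added and 2 for alprostadil, the closest correlates, and Dusp6. Others named (such as Retn, Lpin1, Klf5, Cebpb, Ppard, Med1 and genes compared between replicate numbers) complete a count and were picked after their values were seen. Alternatives were no block, other filters, median centring, an intensity trend, the mean of features, fits of 2 groups, and runs without each array or replicate number.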

Additional observations from a re-analysis of the deposited data

How the results depend on the processing

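Counts of adipocyte genes called were within 1.5 times the reported ones for all 8 tests under no low-signal filter, a filter at the 50th percentile, median centring of arrays, an intensity trend and the mean of a symbol's features, and for the 6 group comparisons when only their arrays were fitted. Without the replicate block the counts were 1 against trimebutine, 1 against vehicle, 3 against alprostadil and 1 over the 4 groups, and the other 3 group comparisons stayed at 0. With an array or a replicate number left out, the combination had 2 to 7 genes against trimebutine, 2 to 7 against vehicle and 4 to 6 against alprostadil. These ranges include runs without an array of a group outside the comparison, and only such runs reached 7. Lipe lost its call against trimebutine with no filter (adjusted p = 0.0614), with the trend (adjusted p = 0.0959) and with 2 groups fitted (adjusted p = 0.117). Against vehicle it lost it in the same 3 settings (adjusted p = 0.0769, 0.117 and 0.125), as did Adipoq with 2 groups fitted (adjusted p = 0.0564). Differences with no call changed sign when an array or a replicate number was left out. For trimebutine against vehicle they ran from -0.15 to 0.032 for Adipoq, -0.14 to 0.15 for Cfd, -0.16 to 0.026 for Fabp4, -0.046 to 0.031 for Lipe, -0.21 to 0.14 for Lpl and -0.15 to 0.012 for Pparg. For alprostadil against vehicle the ranges were -0.092 to 0.088 for Adipoq, -0.13 to 0.16 for Cfd, -0.23 to 0.056 for Lpl and -0.17 to 0.15 for Plin1, and against trimebutine -0.20 to 0.21 for Cfd, -0.23 to 0.05 for Fabp4 and -0.25 to 0.11 for Lpl. Cfd ran from -0.034 to 0.25 for the combination against alprostadil and from -0.045 to 0.26 against trimebutine. No called difference changed sign under the alternatives run. What 3 arrays per group resolve differs by gene: for the combination against trimebutine the SE was 0.054 for Lipe, called at 0.16, and 0.23 for Lpl.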

Other observations

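Genes of fat storage outside the 8 also differed between replicate numbers. Of 13 lipid droplet and lipolysis genes 6 were called by the moderated F test and all 6 were higher in replicate 3 than in replicate 1, led by Cidec (3.18-fold), Cidea (2.26-fold) and Mgll (2.00-fold). Of 16 genes of fatty acid and triglyceride synthesis 7 were called, all higher in replicate 3, among them Gpd1 and Acsl1 (2.89-fold each), which supply glycerol phosphate and activated fatty acids, and Pck1 (2.39-fold). Of 12 adipokines and hormone receptors 4 were called, all higher in replicate 3, with Retn at 2.58-fold and Rbp4 at 2.38-fold. The share called among all genes was 14.4%.

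Regulators outside the 8 genes and precursor markers did not all share that direction. Among the 8 genes, the regulator Cebpa was called and was 1.30-fold higher in replicate 3. Pparg (1.23-fold) did not pass. Of 11 PPAR receptors, partners and cofactors 2 were called, where 14.4% of all genes were. Both, Rxra (1.27-fold) and Ncoa2 (1.12-fold), were higher in replicate 3. Of 14 regulators that favour adipogenesis 6 were called, 3 higher in replicate 3 (Zfp423, Nr1h3 and Srebf1) and 3 lower (Ebf2, Klf5 and Ebf1), and none of 9 that oppose it was called. Of 7 precursor markers 2 were called, and both, Fap (0.69-fold) and Cd34 (0.80-fold), were lower in replicate 3. Among the dermal markers Sox2 was 2.45-fold higher in replicate 3 and Nes 0.838-fold, and the other 7 tested did not pass.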
